A study of Mus musculus with 20 samples.

Results

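Transcripts of PDGF and VEGF ligands and receptors were examined in mouse malignant mesothelioma (MM), a tumor of the mesothelial lining of body cavities. The 10 genes were chosen by name out of the 21884 genes in the deposited table. They are the PDGF receptor genes Pdgfra and Pdgfrb, the PDGF ligand genes Pdgfa, Pdgfb and Pdgfc, the VEGF ligand genes Vegfa, Vegfb and Vegfc, and the neuropilin genes Nrp1 and Nrp2. The rule uses gene names alone, and 10 of 10 genes reached the level required for testing, at least 1 CPM (reads scaled to a common library total) in at least 7 of 14 libraries.

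PDGF ligands are secreted dimers that activate the receptor tyrosine kinases PDGFRα and PDGFRβ and drive division and migration of mesenchymal cells. VEGF ligands act on the kinases encoded by Flt1, Kdr and Flt4 and are best known for the growth of blood and lymphatic vessels. Neuropilins are receptors without a kinase that bind both VEGF ligands and class 3 semaphorins. In human mesothelioma both growth factor families have long been studied as signals made by the tumor itself.

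Each of 7 MM lines was sequenced once as MM organoids in Matrigel (3D) and once as a 2D MM cell line, which gave 14 libraries. The strain of all lines is labelled C57/BL6. Intraperitoneal crocidolite, a form of asbestos, gave rise to m5, m12, m28, m54 and m60 in p53+/- mice. Line m107 came from a p53+/- mouse given a carbon nanotube, and m67 from a WT mouse given crocidolite. The lines are replicates from separate male mice, and no library was repeated, so the spread between lines holds both biological and technical variation. According to the methods, organoid medium held EGF, R-spondin, Noggin and a ROCK inhibitor. The labels name fetal bovine serum for both cultures, whereas the methods list none for organoids, so culture here means matrix and medium together. In the pathology summary of the study m28, m54 and m107 are sarcomatoid (spindle-shaped) and m5, m12 and m60 biphasic (mixed), while m67 was grown from ascites and has no subtype. Elsewhere the study calls m5 organoids sarcomatoid and m12 organoids epithelioid.

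Library totals ran between 11134018 and 53911770 reads (medians 16548710 for organoids and 15772888 for 2D lines), and 0 reads of a gene allowed up to 0.0556 CPM in the deepest library and 0.269 CPM in the shallowest, for counting error only. Mesothelial markers (6 genes) summed to 412 to 4213 CPM in 3D and 368 to 9346 CPM in 2D. Some libraries stood apart. The mesothelial sum of 3D m12 was 648 CPM, of which Msln, the mesothelin gene, held 647 CPM, while Wt1 had 2 reads and Upk1b and Gpm6a 0. In 3D m12, 8 epithelial markers summed to 3536 CPM (at most 211 CPM in any other library) and 9 mesenchymal markers to 134 CPM (at least 9012 CPM elsewhere). The sum of 11 macrophage markers was 2238 CPM in 3D m67 and did not exceed 204 CPM in another library. Reads of 4 Y-linked genes (Uty, Kdm5d, Eif2s3y and Ddx3y) numbered 0 in 3D m5, against 12572 in 2D m5, but 10773 in 3D m12, against 0 in 2D m12. The libraries labelled m5 and m12 thus differed between cultures in Y-linked reads, in opposite directions. Line m28 had few in either culture (0 in 3D and 10 in 2D), and the other libraries had 171 to 2125. The part of this in the results was not tested. Culture tests of the 10 genes that rest on m12 are given with and without it, and calls also without both m5 and m12. For the gene lists, fits without m12 keep m5. Means by histology and the division of variance include m12.

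The question was how expression of these genes in MM organoids differed from that in 2D. By limma on log2(CPM + 1) with line and culture in the model, 1 of 10 genes (Vegfb) was higher in 3D and 0 of 10 were lower at an adjusted p under 0.05. Of all 11677 genes tested, 2.10% were called higher and 1.18% lower in 3D, or 3.28% in all. At an unadjusted p of limma under 0.05, 2 genes were higher (Vegfa and Vegfb) and 2 lower (Pdgfb and Pdgfc), DESeq2 on the recovered reads called the same 4 genes, and edgeR called 0 in either direction. Of all genes tested, 16.5% were higher and 8.69% lower at an unadjusted p of limma under 0.05, and these shares also apply to the unadjusted counts of the gene lists given further on. The shares of all genes called by DESeq2 were 8.67% higher and 7.48% lower, and by edgeR 0.368% higher and 0.300% lower. Without m12, limma called 3 of 10 genes higher in 3D (Pdgfra, Vegfb and Nrp2) and 1 of 10 lower (Pdgfb), against 4.36% (higher) and 2.25% (lower) of all genes. Of the 10 genes, 3 were then higher (the same 3) and 2 lower (Pdgfb and Pdgfc) in every line left, as were 11.4% (higher) and 6.14% (lower) of all genes. Without m5 and m12, limma called 2 genes higher (Pdgfra and Vegfb) and 1 lower (Pdgfb), against 1.86% and 1.11% of all genes, and 3 were higher and 2 lower in every line left, against 13.3% and 7.42%. In bulk RNA, fewer cells of a type and less RNA per cell cannot be told apart.

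**Figure D1:**
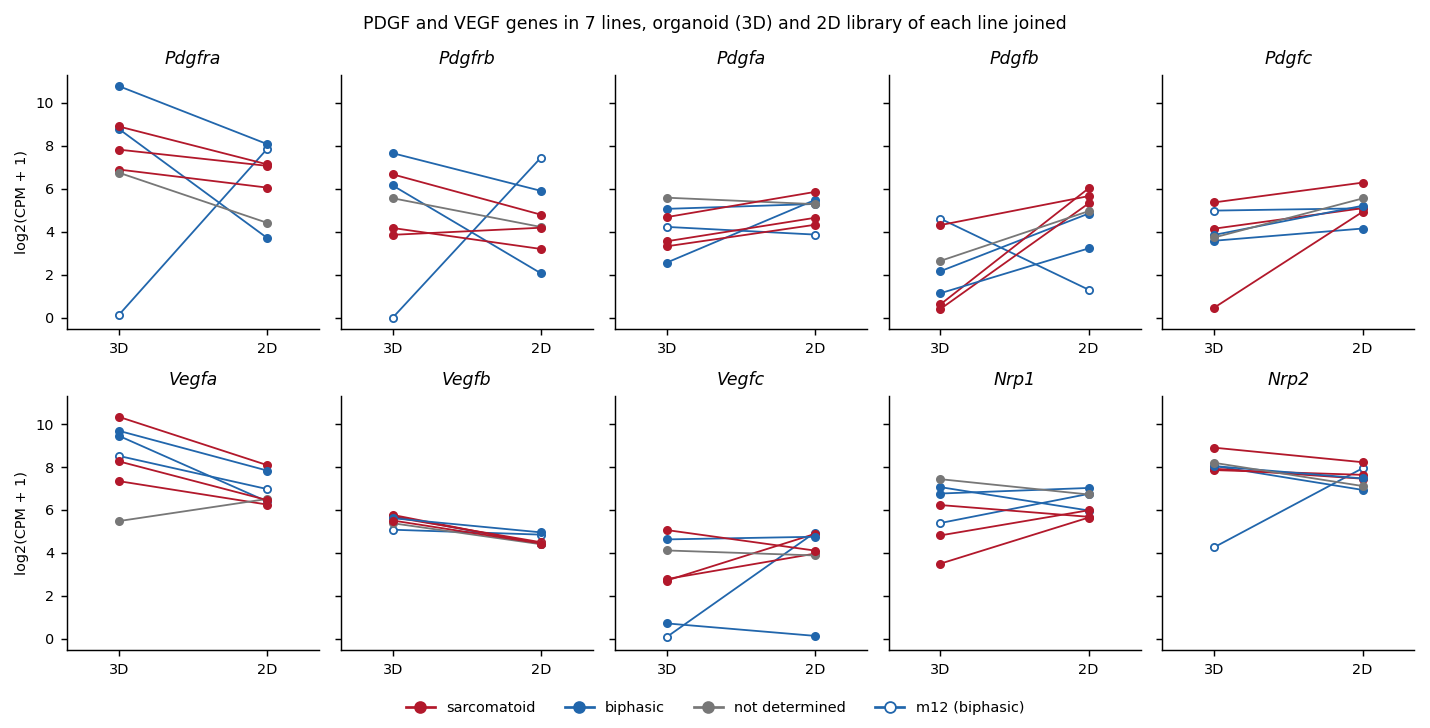
Level of each gene as log2(CPM + 1), with the organoid (3D) library on the left of each panel and the 2D library of the same line on the right, joined by a line. Colors give histology, and open circles mark m12, whose lines for Pdgfra, Pdgfrb and Nrp2 run against those of most other lines. The 7 Vegfb lines all run lower in 2D.

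The promoters of 3 of the genes are shown because these genes had the smallest unadjusted p values of limma for a higher (Vegfb and Vegfa) or lower (Pdgfc) level in 3D. They are the 250 bases before the transcription start in RefSeq on GRCm38.p6, read 5′ to 3′ on the strand of the gene. Vegfb lies at chr19:6987652-6987901 on the minus strand, the windows of Vegfa, which has a pair of RefSeq starts, at chr17:46032378-46032627 (upstream) and chr17:46025164-46025413 (downstream) on the minus strand, and Pdgfc at chr3:81036166-81036415 on the plus strand. Capitals mark matches on either strand to the core of the hypoxia response element (ACGTG or GCGTG) and to the GC box (GGGCGG).
Vegfb: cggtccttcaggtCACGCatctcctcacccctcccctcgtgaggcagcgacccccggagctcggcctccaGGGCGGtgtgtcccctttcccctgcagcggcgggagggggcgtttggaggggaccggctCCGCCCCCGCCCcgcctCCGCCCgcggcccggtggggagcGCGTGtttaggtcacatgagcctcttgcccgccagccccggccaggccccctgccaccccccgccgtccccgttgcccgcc
Vegfa upstream: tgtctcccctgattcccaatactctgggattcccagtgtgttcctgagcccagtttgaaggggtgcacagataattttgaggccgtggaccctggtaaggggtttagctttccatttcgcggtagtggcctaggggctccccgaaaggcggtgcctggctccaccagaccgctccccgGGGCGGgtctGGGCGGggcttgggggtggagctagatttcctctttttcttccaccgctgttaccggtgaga
Vegfa downstream: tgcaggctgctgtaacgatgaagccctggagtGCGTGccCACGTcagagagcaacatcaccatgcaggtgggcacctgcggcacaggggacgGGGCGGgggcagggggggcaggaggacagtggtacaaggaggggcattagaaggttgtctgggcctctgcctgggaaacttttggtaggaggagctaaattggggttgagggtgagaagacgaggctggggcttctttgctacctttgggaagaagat
Pdgfc: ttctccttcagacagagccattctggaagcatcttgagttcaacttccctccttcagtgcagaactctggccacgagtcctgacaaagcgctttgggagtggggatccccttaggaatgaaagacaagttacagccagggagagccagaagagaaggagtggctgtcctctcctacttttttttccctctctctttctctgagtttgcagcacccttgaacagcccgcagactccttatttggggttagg

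The Vegfb window held 2 matches to GCGTG and 4 to GGGCGG, the upstream Vegfa window 2 matches to GGGCGG, the downstream Vegfa window 1 match to each of the 3 motifs, and the Pdgfc window 0 matches to any of the motifs. The downstream Vegfa window lies inside the gene as read from the upstream start, and whether it acts as a promoter was not tested. The upstream window held neither hypoxia core. Of 32851 mouse promoters of this length, 16.6% held ACGTG, 28.2% GCGTG and 32.7% GGGCGG. RefSeq windows were found for 8 of the 10 genes (10 windows), of which 1, the downstream window of Vegfa, held ACGTG, 5 held GCGTG and 8 held GGGCGG. Both strands were searched, the hypoxia cores differ only in their first letter, and overlapping matches were counted separately. A match describes letters only and is no measurement of binding.

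Vegfb was the gene with the smallest spread and the steadiest difference. It encodes VEGF-B, a ligand of the FLT1 kinase and of NRP1, and lies at chr19:6958447-6965127 on the minus strand of GRCm39 (ENSMUSG00000024962). It stood at 51.8, 32.8, 50.05, 53.6, 48.0, 40.7 and 44.5 CPM in MM organoids of m5, m12, m28, m54, m60, m67 and m107, against 20.4, 27.8, 21.6, 20.3, 30.1, 20.2 and 20.7 CPM in the 2D lines in the same order. The lowest organoid library lay above the highest 2D library. Such a gap with 3D higher was found in 0.668% of genes tested (0.334% with 3D lower, which held for 0 of the 10 genes), and a higher value in 7 of 7 lines in 7.05%. The means were 45.9 ± 7.26 CPM in 3D and 23.0 ± 4.14 CPM in 2D (SD, n = 7 lines each). The fold was 1.96 (95% interval 1.504 to 2.543) on the log2(CPM + 1) scale, with an adjusted p of 0.0301 from limma over all genes. An exact sign-flip permutation test of the 7 line differences (two-sided) gave p = 0.0156, the smallest it can give. The difference held its sign when any line was left out, at 0.90 to 1.09 log2, but the adjusted p of limma was then between 0.0105 and 0.0935 and missed the threshold without m5, m28, m54, m60 or m67. It also missed the threshold by edgeR (0.0510), with no filter on low values (0.0557) and over the 5 crocidolite lines of p53+/- mice (0.105). It was smallest in m12, at 0.23 log2, and between 0.66 and 1.36 in the other 6 lines.

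Vegfb shares 586 bases at its start with Trpt1, which encodes a tRNA phosphotransferase and lies on the opposite strand. The library kit keeps strand, but the strand setting of the counting is not given in the sources used here, so how reads of the overlap were counted is not known. Trpt1 averaged 8.02 ± 2.07 CPM in 3D and 4.63 ± 1.24 CPM in 2D (SD, n = 7), with 7 of 7 lines higher in 3D, at a log2 difference of 0.68 and an adjusted p of 0.0763 from limma. Its part in the Vegfb result was not tested.

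Vegfa encodes VEGF-A, the main ligand of KDR and a gene known to respond to low oxygen. It lies at chr17:46327919-46343309 on the minus strand of GRCm39 (ENSMUSG00000023951). In MM organoids it ranged between 43.7 CPM in m67 and 1292 CPM in m28 with a median of 365 CPM, and in 2D between 75.2 CPM in m54 and 272 CPM in m28 with a median of 90.2 CPM. In 6 of 7 lines the organoid library was higher, by 2.13-fold in m54 to 8.32-fold in m5 on the log2(CPM + 1) scale, and m67 was the exception with 43.7 CPM in 3D and 90.2 CPM in 2D. Over 7 lines the log2 difference was 1.51 (SE 0.41, 95% interval 0.57 to 2.45) and did not pass the test (adjusted p = 0.0746 by limma, exact sign-flip p = 0.0313). Without m67 it was 1.93 and passed (adjusted p = 0.0368 by limma). With any other single line left out it was 1.25 to 1.58 and did not pass (adjusted p = 0.0804 to 0.184 by limma). Over 7 lines it passed by DESeq2 (adjusted p = 0.00536) and not by edgeR (adjusted p = 0.112). The 3D m67 library is the one with a macrophage marker sum of 2238 CPM, and the part of that in its low Vegfa value was not tested.

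Of the 8 tested genes of oxygen sensing, 0 passed the test of limma or edgeR over 7 lines. Without m12, limma called 2 of them higher in 3D, Hif1a (log2 difference 0.55, adjusted p = 0.0366), which encodes the oxygen-regulated factor HIF-1α, and its partner Arnt (0.62, adjusted p = 0.0318). With limma, 3 were higher and 2 lower at an unadjusted p under 0.05, and DESeq2 called 1 higher (Egln3) and 1 lower (Cited2). The lower genes of limma were Cited2 (log2 difference -0.80, adjusted p = 0.142) and Egln1 (-0.43, adjusted p = 0.170). The median log2 difference of the list was 0.38, against 0.06 over all genes tested. The list mixes HIF genes with genes that act against HIF-1α, such as Egln3, so this median gives no direction of an oxygen response. Egln3, a prolyl hydroxylase that marks HIF-1α for destruction and is itself raised by HIF, averaged 119 ± 118 CPM in 3D and 33.2 ± 16.2 CPM in 2D (SD, n = 7). It was higher in 3D in 7 of 7 lines (log2 difference 1.51, adjusted p = 0.0943 by limma).

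Vegfc encodes VEGF-C, the ligand of FLT4 that acts on lymphatic vessels. It lies at chr8:54530257-54640131 on the plus strand of GRCm39 (ENSMUSG00000031520). It ranged between 0.0556 CPM (3 reads) in m12 and 32.5 CPM in m107 in 3D, with a median of 5.87 CPM, and between 0.0990 CPM (5 reads) in m5 and 29.8 CPM in m12 in 2D, with a median of 16.3 CPM. The very low libraries were 3D m12 (2D m12 held 29.8 CPM) and both libraries of m5 (0.643 CPM in 3D). Lines differed in direction, with 3 higher and 4 lower in 3D, and the log2 difference was -0.94 (SE 0.66, adjusted p = 0.397 by limma) or -0.29 without m12 (adjusted p = 0.671).

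Of the further ligand genes Pdgfd, Vegfd and Pgf, 0 of 3 passed limma, edgeR or DESeq2, nor had any an unadjusted p under 0.05, and their median log2 difference was 0.06. Pgf, which encodes placental growth factor, had the smallest p of limma among them and averaged 1.97 ± 1.68 CPM in 3D and 1.74 ± 1.56 CPM in 2D (SD, n = 7, adjusted p = 0.754).

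**Figure D2:**
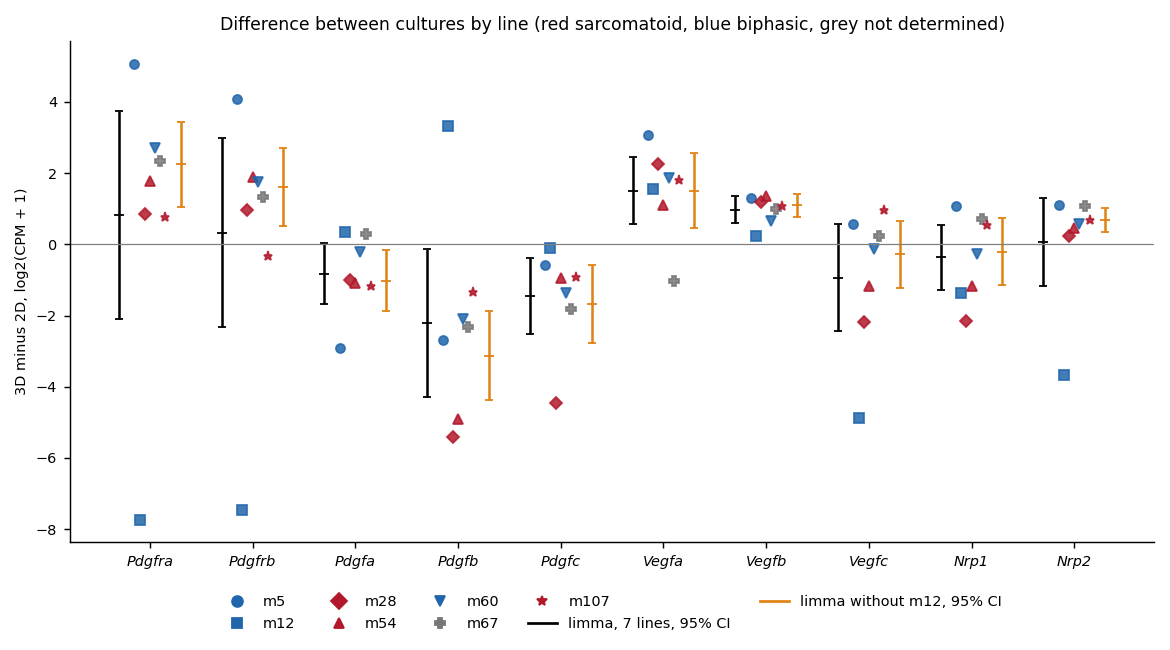
Difference of log2(CPM + 1), 3D minus 2D, of each line (symbols) with the limma estimate and 95% confidence interval over 7 lines (black, left of the symbols) and without m12 (orange, right of the symbols). The blue squares of m12 lie at -7.73 for Pdgfra, -7.46 for Pdgfrb and -3.68 for Nrp2, and the intervals of these genes are narrower without that line.

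Over the 7 organoid libraries Pdgfra and Pdgfrb had the widest ranges of the 10 genes, 10.66 and 7.66 log2(CPM + 1). Without m12 the ranges were 4.03 and 3.80, less than those of Pdgfc (4.90) and Vegfa (4.85). Pdgfra encodes PDGFRα, which binds PDGF-A, PDGF-B and PDGF-C, and lies at chr5:75311994-75358876 on the plus strand of GRCm39 (ENSMUSG00000029231). It stood at 442, 0.0927, 118, 479, 1764, 106.9 and 226 CPM in MM organoids of m5, m12, m28, m54, m60, m67 and m107, against 12.1, 231, 65.7, 140.3, 271, 20.4 and 134 CPM in the 2D lines. Thus 6 of 7 lines were higher in 3D, by 1.69-fold in m107 to 33.7-fold in m5, and m12 had 5 reads in 3D, against 230.8 CPM in 2D. Over 7 lines the log2 difference was 0.82 (SE 1.28, adjusted p = 0.716 by limma), and without m5 it was 0.11 (adjusted p = 0.969). Without m12 it was 2.24 (95% interval 1.06 to 3.43), a 4.74-fold rise with 6 of 6 lines higher and an adjusted p of 0.0437 by limma. Means over these 6 lines were 523 ± 628 CPM in 3D and 107.2 ± 96.9 CPM in 2D (SD). Without both m5 and m12 the log2 difference was 1.68 (adjusted p = 0.0379, higher in 5 of 5 lines).

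Pdgfrb encodes PDGFRβ, the main receptor of PDGF-BB and a receptor typical of pericytes and fibroblasts, and lies at chr18:61178212-61218133 on the plus strand of GRCm39 (ENSMUSG00000024620). In 3D it ranged between 0 reads in m12 and 201 CPM in m60, with a median of 46.3 CPM, and in 2D between 3.19 CPM in m5 and 175 CPM in m12, with a median of 17.7 CPM. It was higher in 3D in 5 of 7 lines, with m12 and m107 lower. The 0 reads of 3D m12 allow up to 0.0556 CPM, so Pdgfrb was at least 3138-fold lower in 3D m12 than in 2D m12. The log2 difference was 0.32 (adjusted p = 0.890 by limma) over 7 lines, -0.08 with a pseudocount of 0.1, -0.31 without m5 and 1.62 (95% interval 0.52 to 2.72, adjusted p = 0.0759) without m12.

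Across the 14 libraries Pdgfra and Pdgfrb followed each other closely (Pearson r = 0.90, Spearman rho = 0.84). Over the 12 libraries left without m12 the values were 0.86 and 0.79. These are descriptions of libraries that share lines and, in the case of m12, the low mesenchymal marker sum. Pericyte markers (8 genes) summed to 6.54 to 190 CPM in 3D and 1.67 to 30.5 CPM in 2D, with Higd1b at most 0.0963 CPM in 3D and 0 in 2D, and Abcc9 at most 0.326 CPM in 3D and 0.0482 CPM in 2D. Of 3 pericyte markers tested, 1 rose: Notch3, a receptor of vascular mural cells, at 40.9 ± 63.9 CPM in 3D and 3.14 ± 5.47 CPM in 2D (SD, n = 7, adjusted p = 0.0342 by limma, higher in 7 of 7 lines). Des (log2 difference 0.25, adjusted p = 0.677 by limma) and Cspg4 (-0.32, adjusted p = 0.668) did not pass. The pericyte sum was highest in 3D m67 (190 CPM, of which Notch3 held 175 CPM), where Pdgfra was at 106.9 CPM. In 3D m60, the library with the highest Pdgfra and Pdgfrb, the sum was 141 CPM, of which Rgs5 held 107.1 CPM and Notch3 10.4 CPM. The part of such cells or genes in the receptor levels was not tested.

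**Figure D3:**
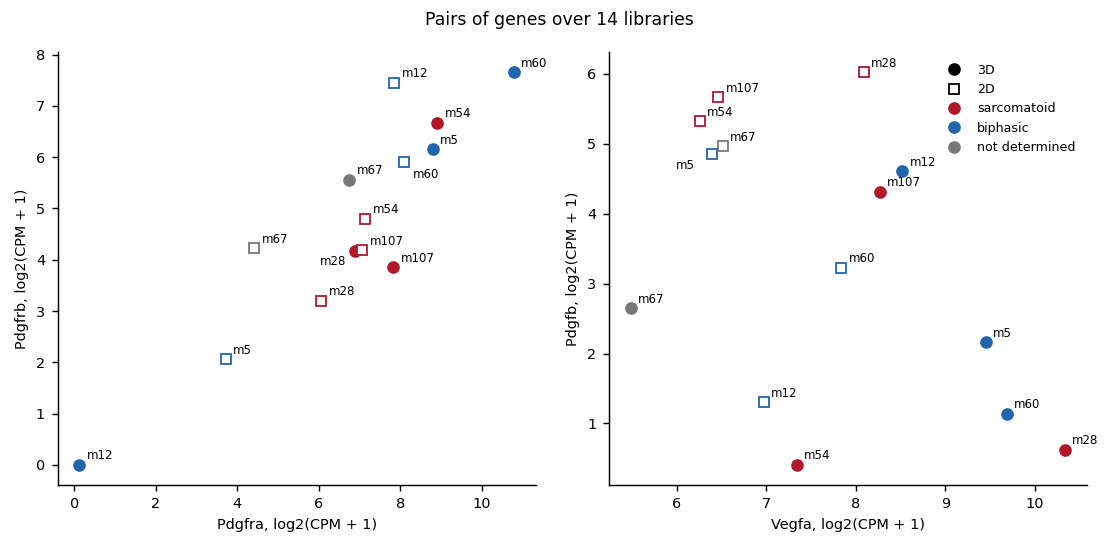
Left, Pdgfrb against Pdgfra, and right, Pdgfb against Vegfa, in log2(CPM + 1), with 1 point for each of the 14 libraries (filled circles 3D, open squares 2D, colors by histology). On the left the points rise together (Pearson r = 0.90), with 3D m12 at the lower end of both axes; on the right the relation is weak (r = -0.44).

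Pdgfa, Pdgfb and Pdgfc were each lower in MM organoids in 5 to 7 of 7 lines, and none passed limma over 7 lines. Pdgfb encodes PDGF-B, which forms the PDGF-BB dimer, and lies at chr15:79880009-79899181 on the minus strand of GRCm39 (ENSMUSG00000000489). It stood at 3.49, 23.4, 0.539, 0.326, 1.20, 5.26 and 18.9 CPM in organoids of m5, m12, m28, m54, m60, m67 and m107, against 27.8, 1.47, 64.2, 39.0, 8.37, 30.2 and 49.7 CPM in 2D. In 6 of 7 lines it was lower in 3D, most of all in m28 and m54, and m12 was higher by 9.91-fold. Over 7 lines the log2 difference was -2.21 (SE 0.91, adjusted p = 0.177 by limma, exact sign-flip p = 0.0938). Without m12 it was -3.13 (95% interval -4.38 to -1.87), with 6 of 6 lines lower and an adjusted p of 0.0229 by limma. Means over these 6 lines were 4.95 ± 7.09 CPM in 3D and 36.5 ± 19.3 CPM in 2D (SD).

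Pdgfc encodes PDGF-C, a ligand that must be cut by a protease before it binds PDGFRα, and lies at chr3:80943668-81121473 on the plus strand of GRCm39 (ENSMUSG00000028019). Its organoid levels ranged between 0.385 CPM in m28 and 40.4 CPM in m107 with a median of 13.5 CPM, and its 2D levels between 16.8 CPM in m5 and 77.2 CPM in m107 with a median of 33.3 CPM. It was lower in 3D in 7 of 7 lines, as were 3.90% of all genes tested, but the cultures overlapped. The log2 difference was -1.45 (SE 0.47, 95% interval -2.52 to -0.39) and did not pass limma (adjusted p = 0.105), while the exact sign-flip permutation test gave p = 0.0156, the smallest it can give. The size varied widely, between -0.11 log2 in m12 and -4.46 log2 in m28.

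Pdgfa encodes PDGF-A, a ligand of PDGFRα alone, and lies at chr5:138961758-138983435 on the minus strand of GRCm39 (ENSMUSG00000025856). It averaged 21.0 ± 15.0 CPM in 3D and 33.4 ± 15.2 CPM in 2D (SD, n = 7). It was lower in 3D in 5 of 7 lines, with m12 and m67 slightly higher, and the log2 difference of -0.82 (95% interval -1.68 to 0.03) did not pass limma (adjusted p = 0.212).

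Proteases that act on these ligands or on their matrix were examined as a list of 12 genes, 11 of them tested. By limma 1 rose and 1 fell, and their median log2 difference was -0.17, against 0.06 over all genes. Plat encodes tissue plasminogen activator, which is known to activate PDGF-C. It averaged 138 ± 72.2 CPM in 3D and 65.7 ± 42.2 CPM in 2D (SD, n = 7) and rose in 7 of 7 lines (log2 difference 1.13, SE 0.22, adjusted p = 0.0381 by limma). Adamts1 encodes a metalloprotease known to bind VEGF-A. It averaged 37.7 ± 13.7 CPM in 3D and 177 ± 102.5 CPM in 2D (SD, n = 7) and fell in 7 of 7 lines (log2 difference -2.07, SE 0.37, adjusted p = 0.0319 by limma). By edgeR neither passed (adjusted p = 0.0630 for Plat and 0.0512 for Adamts1). Without m12, limma called both again (0.0225 for Plat and 0.0294 for Adamts1) and also Adamts14 as higher (log2 difference 2.06, adjusted p = 0.00696).

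Nrp2, which binds VEGF-C and VEGF-A, lies at chr1:62742444-62857854 on the plus strand of GRCm39 (ENSMUSG00000025969). It ranged between 18.3 CPM in m12 and 477 CPM in m107 in 3D, with a median of 263 CPM, and between 121 CPM in m5 and 298 CPM in m107 in 2D, with a median of 176 CPM. In 6 of 7 lines it was higher in 3D, and 3D m12 was far below every other library. The log2 difference was 0.07 (adjusted p = 0.953 by limma) over 7 lines and -0.02 with TMM scaling. Without m12 it was 0.69 (95% interval 0.35 to 1.03), a 1.61-fold rise with 6 of 6 lines higher and an adjusted p of 0.0385 by limma. When m5 was left out as well it was 0.60 and did not pass (adjusted p = 0.0868).

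Nrp1, the co-receptor of VEGF-A and semaphorin 3A, lies at chr8:129085085-129231082 on the plus strand of GRCm39 (ENSMUSG00000025810). It averaged 80.7 ± 59.4 CPM in 3D and 80.5 ± 32.1 CPM in 2D (SD, n = 7), with 3 lines higher and 4 lower in 3D. The log2 difference was -0.37 with a 95% interval of -1.27 to 0.53 (adjusted p = 0.587 by limma), so the data leave room for a moderate difference in either direction. Of 12 genes of class 3 semaphorins and plexins, the other partners of neuropilins, 11 were tested and 0 passed limma or edgeR over 7 lines. Without m12, limma called Plxna3 (log2 difference 1.60, adjusted p = 0.0138) and Plxnd1 (1.60, adjusted p = 0.0192) higher in 3D. With limma, 2 were higher at an unadjusted p under 0.05 and 3 lower, and DESeq2 called 1 higher and 3 lower. Plxna3, a semaphorin co-receptor, had the smallest p over 7 lines, with 61.5 ± 30.1 CPM in 3D and 22.1 ± 6.82 CPM in 2D (SD, n = 7, adjusted p = 0.0573 by limma).

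Transcripts of the VEGF receptor kinases were present at uneven levels, and 0 of 3 passed limma or edgeR. At an unadjusted p under 0.05 of limma 2 were lower, and DESeq2 called the same 2, Kdr and Flt4, lower. Kdr encodes VEGFR2 and had the smallest p. It had 0 reads in 3D m5, m12 and m28 and at most 28.7 CPM in 3D (m107), against 0.733 to 105 CPM in 2D, was lower in 3D in 7 of 7 lines, and had an adjusted p of 0.0561 by limma. Flt1 and Flt4, named after their values were seen, are the other kinases of the list. Flt1 ranged between 0.297 and 386 CPM in 3D and between 1.13 and 141 CPM in 2D (adjusted p = 0.562 by limma). Flt4 ranged between 1.85 and 452 CPM in 3D and between 33.4 and 495 CPM in 2D (adjusted p = 0.125). Of the 8 other genes of the endothelial list, 6 were at or near 0 in all 14 libraries. Cldn5 had 0 reads in each, and the highest values were 1.44 CPM for Pecam1, 0.380 CPM for Cdh5, 0.808 CPM for Tek, 0.260 CPM for Tie1 and 0.173 CPM for Emcn. Esam, which encodes an adhesion molecule, reached 118.6 CPM in 3D and 123.9 CPM in 2D (both m107), and Egfl7, which encodes a secreted matrix protein, 12.1 CPM in 3D and 5.42 CPM in 2D (both m12). The whole endothelial list of 10 genes, which includes Kdr and Flt1, summed to 17.1 to 410 CPM in 3D and 21.9 to 282 CPM in 2D, and 0 of its 4 tested genes passed limma or edgeR (1, Kdr, was lower at an unadjusted p under 0.05 of limma and by DESeq2).

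Below the receptors, 16 adaptors and effectors were tested, and 0 passed limma or edgeR over 7 lines. Without m12, limma called 2 higher in 3D, Pik3r2 (log2 difference 0.90, adjusted p = 0.0199), which encodes a regulatory subunit of PI3 kinase, and Shc1 (0.68, adjusted p = 0.0368), which encodes an adaptor of receptor kinases. At an unadjusted p under 0.05 of limma 3 were higher and 2 lower, and DESeq2 called 0 higher and 2 lower. The smallest p was that of Ptpn11, which encodes the phosphatase SHP2 (log2 difference -0.45, adjusted p = 0.0629 by limma, lower in 7 of 7 lines). Of 12 genes of receptor turnover and phosphatases, 0 rose and 1 fell by limma. Unadjusted p values of limma under 0.05 were found for 1 higher and 1 lower gene, as were calls of DESeq2, and edgeR called 0. The gene that fell was Cav1, which encodes the caveolae protein caveolin-1, at 174 ± 50.4 CPM in 3D and 401 ± 231 CPM in 2D (SD, n = 7, log2 difference -1.09, adjusted p = 0.0365). Cav1 was lower in 3D in 7 of 7 lines and missed the threshold by edgeR (adjusted p = 0.0510).

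The variance of each gene over the 14 libraries was divided between line, culture and the rest as a description. Culture took 82.9% of the variance of Vegfb and the line 4.92%. For Pdgfb culture took 33.5%, for Pdgfc 29.6%, for Vegfa 29.0% and for Pdgfa 19.6%. For Vegfc, Nrp1, Pdgfra, Pdgfrb and Nrp2 it took 7.37% or less, and the line took 65.1% for Nrp1 and 62.9% for Vegfc. The division includes m12, whose differences ran against most other lines for Pdgfra (-7.73 log2), Pdgfrb (-7.46) and Nrp2 (-3.68). Between lines the SD of log2(CPM + 1) was larger in 3D than in 2D for 10 of 10 genes over 7 lines, but for 6 of 10 without m12. The same count was not made over all genes, so it cannot be read as particular to these genes. Over 7 lines the SD was 3.39 in 3D and 1.69 in 2D for Pdgfra and 0.241 in 3D and 0.233 in 2D for Vegfb.

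Genes were set side by side only per kilobase of exons. By medians over the 7 organoid libraries, Vegfa stood first at 85.02 CPM per kilobase, ahead of Nrp2 (21.9), Pdgfra (18.4), Vegfb (14.7), Pdgfrb (5.72), Nrp1 (4.85), Pdgfa (2.63), Vegfc (2.05), Pdgfc (2.01) and Pdgfb (0.820). Vegfa exceeded Nrp2 in 6 of 7 lines, Vegfb exceeded Pdgfrb in 6 of 7 and Nrp1 exceeded Pdgfa in 6 of 7. The other neighbours changed places between lines: Nrp2 exceeded Pdgfra in only 4 of 7 lines, Pdgfra exceeded Vegfb in 4, Pdgfrb exceeded Nrp1 in 3, Pdgfa exceeded Vegfc in 3, Vegfc exceeded Pdgfc in 4 and Pdgfc exceeded Pdgfb in 5.

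In 2D the medians ran from Vegfa (21.0 CPM per kilobase), Nrp2 (14.6) and Pdgfra (10.8) through Pdgfb (7.11), Vegfb (6.35), Vegfc (5.68), Pdgfa (5.63), Pdgfc (4.97) and Nrp1 (4.09) to Pdgfrb (2.19). Vegfa exceeded Nrp2, Nrp2 exceeded Pdgfra and Nrp1 exceeded Pdgfrb in 6 of 7 lines. The places between were less fixed: Pdgfra exceeded Pdgfb in only 3 of 7 lines, Pdgfb exceeded Vegfb in 5, Vegfb exceeded Vegfc in 5, Vegfc exceeded Pdgfa in 4, Pdgfa exceeded Pdgfc in 2 and Pdgfc exceeded Nrp1 in 4. By medians Pdgfb stood last in 3D and right after Pdgfra in 2D. Vegfa was the highest of the 10 genes in 5 of 7 organoid libraries and 6 of 7 2D libraries. The exceptions were 3D m54, led by Pdgfra, and 3D m67 and 2D m107, led by Nrp2.

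**Figure D4:**
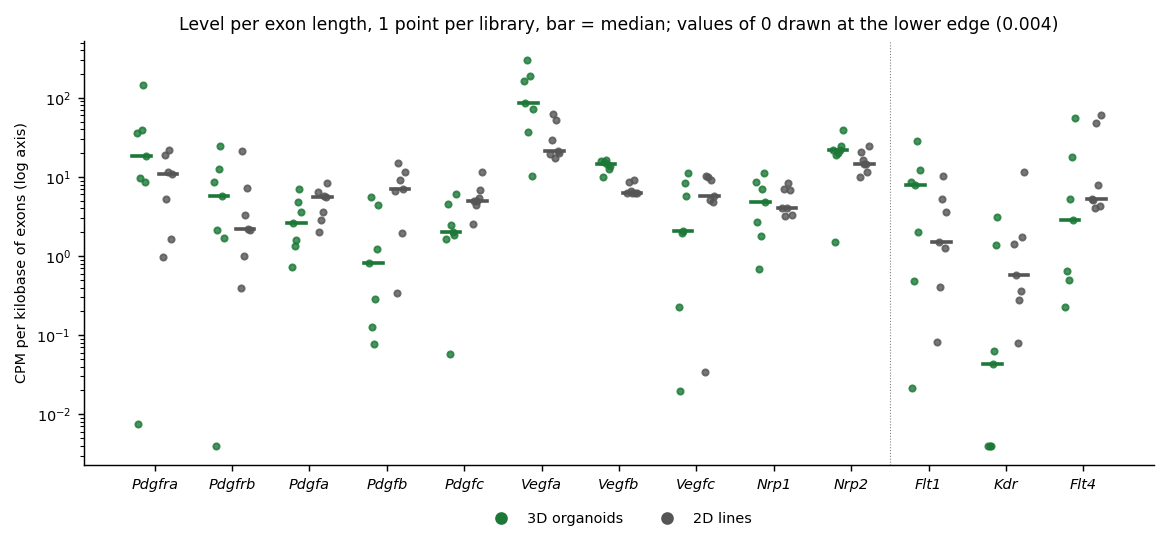
Level per kilobase of exons on a log axis, with 1 point per library and a bar at the median, for 3D organoids (green, left) and 2D lines (grey, right). The 3 VEGF receptor kinases stand right of the dotted line, and Vegfa has the highest median in both cultures at 85.02 CPM per kilobase in 3D and 21.0 in 2D.

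Histology was compared between 3 sarcomatoid lines and 3 biphasic lines within each culture. By limma 0 genes of the whole table passed in 3D, in 2D or for the difference between the cultures by histology, which is 0% of genes in each, and 0 of 10 PDGF and VEGF genes passed by limma, edgeR or DESeq2. Over all genes edgeR called 0 in each comparison, and DESeq2 called 58 in 3D, 49 in 2D and 42 for the difference. At an unadjusted p under 0.05 of limma there were 0 of the 10 genes in 3D (4.58% of all genes), 2 in 2D (4.36%) and 0 for the difference (5.58%).

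The 2 genes in 2D were Pdgfb and Nrp1. Pdgfb stood at 64.2, 39.0 and 49.7 CPM in the sarcomatoid 2D lines m28, m54 and m107, against 27.8, 1.47 and 8.37 CPM in the biphasic 2D lines m5, m12 and m60. The subtypes did not overlap there, as for 9.70% of all genes in 2D, and the log2 difference of 2.54 (SE 0.83) did not pass over all genes (adjusted p = 0.994 by limma). In 3D the subtypes overlapped, at 0.326 to 18.9 CPM in sarcomatoid and 1.20 to 23.4 CPM in biphasic organoids. The 3D minus 2D difference of Pdgfb averaged -3.89 log2 in sarcomatoid and -0.49 log2 in biphasic lines, a difference of -3.40 with a 95% interval of -7.75 to 0.95 (adjusted p = 0.863 by limma). The biphasic lines went opposite ways, at -2.68 in m5, 3.31 in m12 and -2.09 in m60, while sarcomatoid lines ran from -5.41 to -1.35. Nrp1 averaged 53.9 ± 7.35 CPM in sarcomatoid and 99.2 ± 34.3 CPM in biphasic 2D lines (SD, n = 3 each, log2 difference -0.81, adjusted p = 0.994 by limma). In 3D it averaged 37.1 ± 33.0 CPM in sarcomatoid and 93.8 ± 47.4 CPM in biphasic organoids (log2 difference -1.56, 95% interval -3.40 to 0.29, adjusted p = 0.911).

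Nrp1 overlapped between subtypes in both cultures, as did the other 8 genes. Vegfa averaged 587 ± 615 CPM in sarcomatoid and 629 ± 237 CPM in biphasic organoids, and Pdgfra 274 ± 185 CPM in sarcomatoid and 735 ± 918 CPM in biphasic organoids (SD, n = 3 each). Vegfb averaged 49.4 ± 4.57 CPM in sarcomatoid and 44.2 ± 10.1 CPM in biphasic organoids (SD, n = 3 each, adjusted p = 0.944 by limma). With 3 lines a subtype, the intervals are wide: that of Pdgfra in 3D ran from -4.87 to 7.49 log2. Its estimate was 1.31 log2 with sarcomatoid higher, opposite in direction to the means in CPM. The biphasic organoids held 442 CPM of Pdgfra in m5, 0.0927 CPM in m12 and 1764 CPM in m60.

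Genotype and fiber rest on 1 line each and cannot be told apart from the line, so values are given with no test. The WT line m67 had the lowest Vegfa of the 7 organoid libraries (43.7 CPM) and the highest Pdgfa (47.1 CPM) and Nrp1 (172 CPM). In 2D its Vegfa of 90.2 CPM was the median of the lines. The carbon nanotube line m107 had the highest Pdgfc (40.4 CPM), Vegfc (32.5 CPM) and Nrp2 (477 CPM) of the organoid libraries, and the highest Pdgfa (56.9 CPM), Pdgfc (77.2 CPM) and Nrp2 (298 CPM) of the 2D libraries. Within lines, Pdgfb showed the largest decrease of the 10 genes in m28, m54, m60, m67 and m107, Pdgfa in m5 and Pdgfra in m12. The largest increase was that of Pdgfra in m5, m60 and m67, Vegfa in m28 and m107, Pdgfrb in m54 and Pdgfb in m12.

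Finally, the genes tested whose log2(CPM + 1) followed each gene best over the 14 libraries were listed, as a description over libraries that share lines and depth. Pdgfra was followed best by Hoxa6, a homeobox gene (r = 0.95), Osmr, the oncostatin M receptor gene (r = 0.95), and Tgfbr3, the gene of betaglycan (r = 0.95). Pdgfrb was followed by Sh2b2 (r = 0.93), Hoxa6 (r = 0.92) and Lrrc73 (r = 0.92). Vegfa was followed by Ero1a, an oxidase of the endoplasmic reticulum (r = 0.92), Gys1, the glycogen synthase of muscle (r = 0.92), and Niban1 (r = 0.88). Vegfb was followed by Dnase1l2 (r = 0.93), Man2a2 (r = 0.92) and Fbf1 (r = 0.91), and Vegfc by Prkaa1 (r = 0.89), Angptl2 (r = 0.88) and Sema5a (r = 0.83).

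For Pdgfb they were Pik3cb, which encodes a catalytic subunit of PI3 kinase (r = 0.92), Tmem62 (r = 0.92) and Tcte2 (r = 0.88), for Pdgfa Fxyd5 (r = 0.89), Col4a2 (r = 0.87) and Pdia3 (r = 0.87), and for Pdgfc Prkca, which encodes protein kinase C alpha (r = 0.83), Id1 (r = 0.83) and Commd9 (r = 0.82). Nrp2 was followed by Hsf4 (r = 0.96), Nckap5l (r = 0.96) and Vav3 (r = 0.95), and Nrp1 by Grb2, an adaptor of receptor kinases (r = 0.85), Mfsd11 (r = 0.85) and Trip12 (r = 0.84). Without m12 the r of Nrp2 with Hsf4 was 0.84 over 12 libraries, and that of Pdgfra with Hoxa6 was 0.93. Among the 10 genes the pairs with the largest r in size, after Pdgfra with Pdgfrb, were Pdgfra with Nrp2 (r = 0.84, or 0.59 without m12) and Pdgfb with Vegfb (r = -0.80, or -0.89 without m12).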

How the data were processed

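RNA-seq libraries of 7 mouse MM lines, each as 3D organoids and as a 2D line, were analysed. Per the labels and methods, the authors trimmed reads with Trim Galore 0.6.4 after FastQC 0.10.0, mapped with STAR 2.7.9a (GRCm39), and counted with HTSeq 0.12.4. Protein-coding genes then went into edgeR. Values were deposited as CPM, which are comparable between libraries but not scaled for gene length or composition. The table has 14 library columns, 42 rows that share a gene name and 77 without one. It also holds 3 columns of the authors' own comparison (a p-value, a q-value and a ranking), which were not used. The 6 normal mesothelial samples were not analysed here.

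Whole reads were recovered from the CPM steps. In each library 100% of values came out whole within 0.001 reads, which gave the library totals, and 0 reads allow 3 reads of the total, for counting error only.

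The main test was limma 3.58.1 (R 4.3.3) on log2(CPM + 1) with line as a block and culture, after genes under 1 CPM in 8 or more of 14 libraries were dropped, with Benjamini-Hochberg adjustment over all genes tested at a threshold of 0.05. Histology was fitted on 6 libraries within each culture and as a culture by histology term. Single genes were also tested by an exact permutation test that flips the signs of the line differences (two-sided, 128 flips). Folds on the log2(CPM + 1) scale understate changes of low genes. Alternatives were edgeR 4.0.16 and DESeq2 1.42.0 on the recovered reads, pseudocounts of 0.1 and 5, no filter, a mean of at least 10 CPM, TMM and quantile scaling, no block, the crocidolite lines of p53+/- mice, and lines left out. The code of the fit was also run on simulated data, which does not show whether its assumptions hold for these genes.

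The pairing comes from the line named in the labels of both cultures. Deviations of the 2 libraries of a line from their culture means correlated at 0.317 to 0.703 in 5 lines, but at 0.004 in m5 and -0.110 in m12. Y-linked reads also differed between the cultures for these 2 labels. Whether the libraries labelled m5 and m12 share a line between cultures was not tested.

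The genes and lists were chosen with earlier results of these data known. All 10 genes are named. Of each list other than those of cell type markers, every gene past the threshold is named (up to 4 in each direction). Where fewer than 2 pass, the gene with the smallest p is named. For each of the 10 genes, the 3 with the highest Pearson r are named as well. Others named were chosen after their values were seen: Flt1, Flt4, Cited2, Egln1, Trpt1, Rgs5, Esam, Egfl7, the genes called only without m12 (Hif1a, Arnt, Plxnd1, Pik3r2, Shc1 and Adamts14) and the Y-linked genes. Other marker genes are named as defining a cell type. Positions are from GENCODE on GRCm39 and promoters from RefSeq on GRCm38.p6. Figures were drawn with matplotlib 3.10.9 (Python 3.11.15).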

Additional observations from a re-analysis of the deposited data

Results flagged for a closer look

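In 8 of 30 groups of 7 values (the levels of each gene in 3D and in 2D, and its differences between them), 1 library or line lay far from the others by Dixon's criterion at the 95% level, which flags some groups by chance. Line m12 accounts for 5. Its organoid library held Pdgfra at 0.13 log2(CPM + 1), against 6.75 in the nearest organoid library, and Nrp2 at 4.27, against 7.86. Its 3D minus 2D differences were -7.73 log2 for Pdgfra (nearest line 0.76), -7.46 for Pdgfrb (nearest -0.33) and -3.68 for Nrp2 (nearest 0.22). The same organoid library had 3536 CPM of epithelial and 134 CPM of mesenchymal markers, whose part in these values was not tested.

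Line m28 accounts for 2 more, both in Pdgfc, which stood at 0.47 log2(CPM + 1) in 3D m28 (nearest organoid library 3.58) and differed between the cultures by -4.46 log2 (nearest line -1.82). The last is Vegfc in 2D m5, at 0.14 log2(CPM + 1), against 3.88 in the nearest 2D library.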

How the results depend on the processing

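The count of the 10 genes called higher in 3D was 1, and it was 0 with no filter on low values, 0 by edgeR, 2 by DESeq2, 0 in the crocidolite lines from p53+/- mice, 2 without m5 and m12, and 0 to 3 when 1 line was left out. The count called lower was 0, and it was 2 by DESeq2, 1 without m5 and m12, and 0 to 1 when 1 line was left out. With no replicate block for the line, 1 was higher and 0 were lower. Of 180 values of single genes under an alternative, 154 kept direction and side of the threshold, 9 newly passed, 8 no longer passed and 9 changed sign. The changes of sign were in Pdgfrb (-0.083 log2 with a pseudocount of 0.1, and -0.31 to 1.62 when 1 line was left out) and Nrp2 (-0.016 with TMM scaling, -0.26 in the crocidolite lines from p53+/- mice, and -0.11 to 0.69 when 1 line was left out). The cause of these changes was not tested.

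Over all genes, 245 were higher and 138 lower. The split was 168 and 168 with TMM scaling, 180 and 170 with quantile normalization, 81 and 58 with no replicate block, 36 and 27 with no filter, 43 and 35 by edgeR, 1012 and 874 by DESeq2, and 8 and 6 in the crocidolite lines from p53+/- mice. Leaving out 1 line gave between 12 and 10 (without m28) and 511 and 264 (without m12), with 14 and 8 without m54, 17 and 12 without m67, 30 and 30 without m5, 42 and 35 without m60 and 416 and 161 without m107. In histology 0 of the 10 genes passed under the alternatives run for it (pseudocounts, no filter, TMM, quantile, edgeR, DESeq2, each of its 6 lines left out and, for the culture by histology term, no replicate block). Depth limits the lowest values, such as the 3 to 7 reads of Vegfc in 3D m12 and Pdgfb in 3D m54 and m28.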
